A study of Mus musculus with 4 samples.

Results

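The library from cells given suberoylanilide hydroxamic acid alone was compared with the library from cells given vehicle alone, over every gene of the deposited table with a mean of at least 1 FPKM in the 4 libraries of the study. That rule kept 8616 of 23359 genes and used 2 of the 4 libraries. The cells were tumour-initiating stem-like cells isolated from liver tumours of C57BL/6 mice and grown in medium with serum, EGF and dexamethasone. Suberoylanilide hydroxamic acid (SAHA, vorinostat) was given at 0.5 µg/ml for 16 hours. The vehicle culture received neither compound, and the labels do not give its time in culture. The other libraries came from cells given all-trans retinoic acid (ATRA) at 5 µg/ml and cells given ATRA with SAHA at the same doses, each for 16 hours. The labels do not say how many tumours or animals gave the cells.

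SAHA is a hydroxamic acid that binds the zinc ion in the active site of class I and class IIb histone deacetylases. These enzymes remove acetyl groups from histone tails and from other proteins such as tubulin, and they act inside corepressor complexes built on scaffolds such as SIN3 and NCOR. Histone deacetylase inhibitors are known to raise histone acetylation, to slow the cell cycle and to shift many transcripts in either direction, with the replacement linker histone gene H1f0 and the brain creatine kinase gene Ckb among those that rise in many cell types and the cyclin D1 gene Ccnd1 among those that fall.

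Each group had 1 library, so no difference below has a replicate check and no test was run. Higher and lower mean a difference in log2(FPKM + 1) of at least 1 between the libraries. This scale understates differences of low genes, and folds given in words are ratios of FPKM. By this mark 679 genes were higher with SAHA (7.88% of those counted) and 1381 were lower (16% of those counted). The median log2 ratio was -0.12, and 90% of genes lay between -1.78 and 1.21. At a log2 ratio of 2 or more there were 84 higher and 315 lower genes, and at 3 or more 17 and 62. Genes just past the higher mark were H2-D1 and Tcp11l2 (both 1.0) and genes just short of it were Zfp707 and Dus1l. On the other side, Jun and Poglut1 (both -1.0) were just past the lower mark, and Kif22 and Ssrp1 were just short of it. By mean FPKM, Kdm6a was the last gene inside the filter and Zbtb1 the first outside it.

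This split depended on the scale that the libraries were put on. FPKM of counted protein-coding genes, small RNAs and predicted Gm genes left out, summed to less in the SAHA library than with vehicle, and setting these sums equal multiplied SAHA values by 1.48 relative to vehicle. After that rescaling 1686 genes were higher and 808 were lower. Higher genes were 33% of all differences as deposited and 67.6% after rescaling, and the median log2 ratio moved by 0.42 to 0.29. Centring on the median ratio gave 881 higher and 1157 lower. Both choices move SAHA ratios upward, so the 679 higher genes are by construction among the 1686 and the 808 lower genes among the 1381. List counts for SAHA against vehicle are as deposited below, with the count after rescaling where it differs. After rescaling 19.6% of all counted genes were higher and 9.38% lower. Each list count below stands against these shares after rescaling, and against 7.88% higher and 16% lower as deposited. The predicted gene Gm20594, which is listed as protein coding and was chosen after its values were seen, moved with this: it was at 48087 FPKM (vehicle), 50407 (ATRA), 87588 (SAHA) and 31801 (both). Its part in the difference between the scales was not tested.

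**Figure D1:**
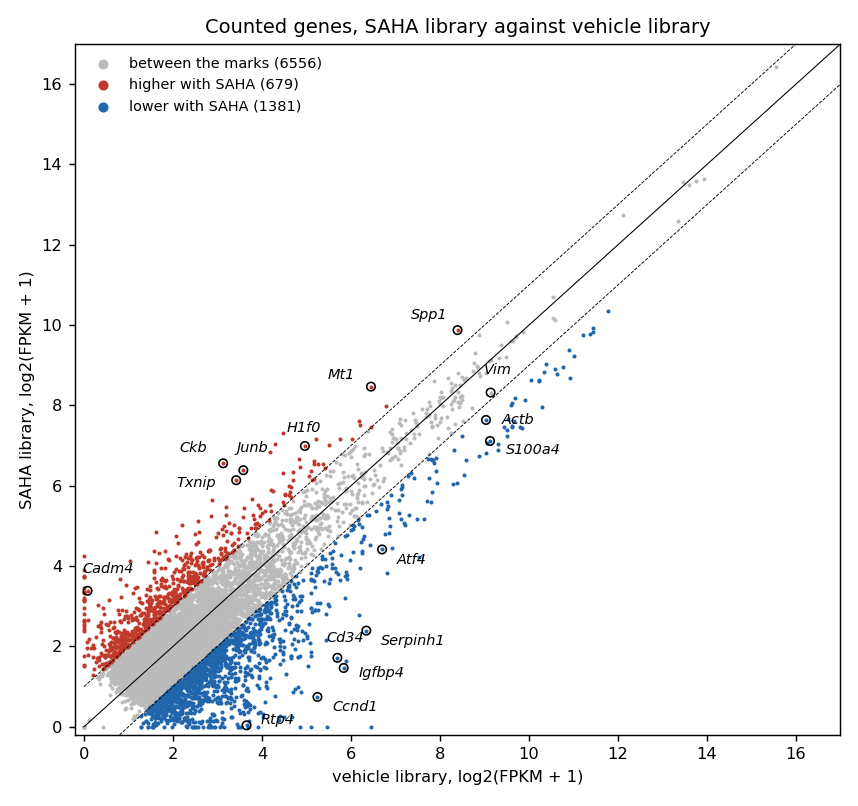
Each point is 1 of the 8616 counted genes, with log2(FPKM + 1) in the vehicle library on the x axis and in the SAHA library on the y axis. The solid line marks equal values and the dashed lines a log2 difference of 1 in either direction. Red points (679) lie above the upper line and blue points (1381) below the lower one, and the circled genes are named in the text.

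Markers of several other liver cell types were near 0. The 14 hepatocyte markers summed to 0.543 FPKM (vehicle), 0.544 (ATRA), 0.564 (SAHA) and 0.779 (both), and 0 of them were counted. The lymphocyte and erythroid lists also had 0 counted members, and the erythroid list summed to 0.0589 to 0.979 FPKM. Of 8 macrophage markers, Cd68, a lysosomal membrane protein, was counted. It was at 1.89 FPKM (vehicle), 2.41 (ATRA), 5.20 (SAHA) and 4.26 (both), while Csf1r and Emr1 were below 0.03 in all 4. The macrophage list summed to 3.37 FPKM (vehicle), 4.53 (ATRA), 5.48 (SAHA) and 4.52 (both). Its members at 1 FPKM or more numbered 2 in each library without SAHA and 1 in each library given it. A member other than Cd68 was thus at 1 FPKM or more with vehicle and under 1 with SAHA. Of 8 endothelial markers Egfl7 was counted (2.5 FPKM (vehicle) and 5.96 (SAHA)), and Pecam1 and Cdh5 were below 0.04. Of 8 stellate cell markers 3 were counted, and the list summed to 27.4 FPKM (vehicle), 22.9 (ATRA), 19.6 (SAHA) and 22.4 (both). Des was at 21.4 FPKM (vehicle) and 15.2 (SAHA), Gfap at 4.06 and 2.52 and Ngfr at 0.350 and 1.73, while Lrat, which defines these cells, was below 0.01. The bile duct marker Spp1, which encodes the secreted phosphoprotein osteopontin, was at 336 FPKM (vehicle), 566 (ATRA), 939 (SAHA) and 433 (both). Krt19 and Epcam, which define bile duct epithelium, were below 0.8 FPKM in every library. Of the 8 bile duct and progenitor markers 3 were counted. Spp1 was higher, and the other 2 had ratios below 0 as deposited, the lowest at -0.50. The depth estimate gave about 97.9 fragments per FPKM and kilobase in the vehicle library and 98 in the SAHA library. Counted rows that share a locus with another row numbered 1622, and their reads are not separated. Among genes named in the text these include Ccnd1, Cd34, Txnip, Hist1h2ap, Hdac7, Hist1h1e, Ncor1, Rb1, Tk1, Cdc20, Anln, Fosl1, Ddr2, Diablo, Gadd45a, Gabarapl1, Tpi1, Nop56, Dkc1, Timp2, Tubb4b, H2-D1, Egfl7, Ccnd3, Bop1, Bysl, Csn3 and Snhg12.

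The 4 marker genes differed far past the mark, and the promoter sequences of 3 of them are shown here because the lists that follow are compared by what such sequences hold. H1f0 encodes the replacement linker histone H1.0, which is made outside S phase. It was at 30.2 FPKM (vehicle), 26.4 (ATRA), 126 (SAHA) and 164 (both). Ckb, which regenerates ATP from phosphocreatine, was at 7.73, 32.9, 93.3 and 68.7 FPKM in that order. Its level with ATRA was thus already above that with vehicle. Ccnd1, the partner of CDK4 and CDK6 in G1, was at 37.0, 45.3, 0.674 and 0.723 FPKM. Cd34, a sialomucin of haematopoietic and other progenitor cells, was at 50.8, 49.4, 2.29 and 4.12 FPKM. In the table, H1f0 lies on chromosome 15 (79028212 to 79030500), Ckb on chromosome 12 (111669355 to 111672338), Ccnd1 on chromosome 7 (144929931 to 144939925) and Cd34 on chromosome 1 (194938821 to 194976959), in mm10.

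Each promoter below is the RefSeq window of 250 bases before to 50 after the gene's start in GRCm38.p6, read 5′ to 3′ on the gene's strand. Capitals mark GC boxes (GGGCGG on either strand), CCAAT on either strand, the TATA box TATAAA and the interferon-stimulated response element core (GAAA, any 2 bases, GAAA) on either strand. Cadm4 is added as the named gene with the lowest vehicle level above 0 among the 15 highest, and Ifit1 as a member of the interferon list described further on. No window for Ccnd1 was used here.
H1f0: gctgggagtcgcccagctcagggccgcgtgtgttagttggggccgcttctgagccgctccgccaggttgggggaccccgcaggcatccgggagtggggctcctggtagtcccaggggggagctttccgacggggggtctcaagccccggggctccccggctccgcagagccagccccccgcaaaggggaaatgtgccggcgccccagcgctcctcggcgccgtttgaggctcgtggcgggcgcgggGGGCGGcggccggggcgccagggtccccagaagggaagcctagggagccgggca
Ckb: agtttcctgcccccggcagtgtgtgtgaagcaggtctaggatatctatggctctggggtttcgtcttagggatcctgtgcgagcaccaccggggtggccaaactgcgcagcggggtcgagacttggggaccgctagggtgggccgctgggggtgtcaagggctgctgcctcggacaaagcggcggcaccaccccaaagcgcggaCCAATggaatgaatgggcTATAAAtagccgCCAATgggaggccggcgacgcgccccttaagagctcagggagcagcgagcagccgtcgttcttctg
Cadm4: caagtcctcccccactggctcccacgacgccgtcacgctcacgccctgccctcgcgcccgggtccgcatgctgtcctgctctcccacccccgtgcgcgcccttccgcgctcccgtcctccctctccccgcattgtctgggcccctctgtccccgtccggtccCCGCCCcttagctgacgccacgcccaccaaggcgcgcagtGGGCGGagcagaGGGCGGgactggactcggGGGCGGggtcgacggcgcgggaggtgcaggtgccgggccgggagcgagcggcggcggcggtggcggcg
Cd34: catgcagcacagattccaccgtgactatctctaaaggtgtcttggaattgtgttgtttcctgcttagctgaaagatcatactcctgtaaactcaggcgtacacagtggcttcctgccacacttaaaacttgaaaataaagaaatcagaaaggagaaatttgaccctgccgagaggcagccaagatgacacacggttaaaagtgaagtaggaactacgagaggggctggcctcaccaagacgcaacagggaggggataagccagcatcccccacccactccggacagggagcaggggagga
Ifit1: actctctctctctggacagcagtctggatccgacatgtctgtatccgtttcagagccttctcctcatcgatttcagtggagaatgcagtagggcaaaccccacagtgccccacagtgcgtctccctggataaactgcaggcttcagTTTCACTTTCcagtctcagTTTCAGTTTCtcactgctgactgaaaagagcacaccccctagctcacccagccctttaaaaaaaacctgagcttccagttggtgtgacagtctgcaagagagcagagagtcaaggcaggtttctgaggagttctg
These windows are chr15:79027962-79028261 (plus strand), chr12:111672289-111672588 (minus strand), chr7:24481773-24482072 (plus strand), chr1:194938571-194938870 (plus strand) and chr19:34640639-34640938 (plus strand). The H1f0 window held 29 CpG dinucleotides and 1 GC box, and the Cadm4 window 40 and 4. The Ckb window held 2 CCAAT boxes and 1 TATA box. The Cd34 window held 7 CpG dinucleotides and none of the marked motifs, and the Ifit1 window held 2 response element cores. A match is a run of letters and not a measured site.

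Beyond the markers, the highest genes had varied roles. Cadm4, a cell adhesion molecule of the immunoglobulin family, was at 0.0575 FPKM (vehicle), 0.0981 (ATRA), 9.44 (SAHA) and 8.05 (both). Fam117a was at 0.239, 0.271, 7.15 and 10.2 FPKM in that order, and Zcchc17, a zinc finger RNA-binding protein gene, at 2.22, 2.10, 19.2 and 19.1. Both were low in the 2 libraries without SAHA and high in the 2 with it, but they were named for their ratios of SAHA against vehicle. Txnip, a thioredoxin inhibitor that responds to glucose, was at 9.71, 6.30, 69.5 and 18.5 FPKM, and Rhob, a small GTPase, at 17.2, 15.9, 114 and 90.5. The mitochondrial leucyl-tRNA synthetase gene Lars2 was at 6.38, 2.53, 49 and 5.16 FPKM, so its high value was seen in the SAHA library and not in the combination. Gsta4, Cotl1, Akap12, Junb, Pld3 and Atox1 were also among the 15 highest, with log2 ratios of 2.75 to 3.09, together with Hist1h2ap, a histone row listed at 0 with vehicle and with ATRA. In these libraries 43 counted genes were under 1 FPKM with vehicle and at 5 or more with SAHA.

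Many of the lowest genes were near 0 with SAHA. Counted genes at 5 FPKM or more with vehicle and under 1 with SAHA numbered 149. Besides Ccnd1 and Cd34, the 15 lowest held the interferon-inducible p200 genes Mnda, Ifi204, Ifi205 and Mndal and the lymphocyte antigen genes Ly6a, Ly6c1 and Ly6c2. The paralogs in each of these groups share sequence, and their reads may be split between them. They also held Lgals3bp, a secreted glycoprotein gene at 15.3 FPKM (vehicle), 6.91 (ATRA), 0.253 (SAHA) and 0.114 (both), and Emp3, a membrane protein gene at 24.9, 17.4, 0.812 and 1.17. Mmp14, a membrane-bound collagenase, was at 15.2, 11.5, 0.178 and 0.353 FPKM. Igfbp4, which binds insulin-like growth factors, was at 56.1, 118, 1.76 and 9.34 FPKM. Nupr1, a stress-response chromatin protein, was at 58.5, 86.5, 2.14 and 28.5 FPKM, so its combination value lay well above its SAHA value. Serpinh1 (log2 ratio -3.95) was also among the 15.

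**Figure D2:**
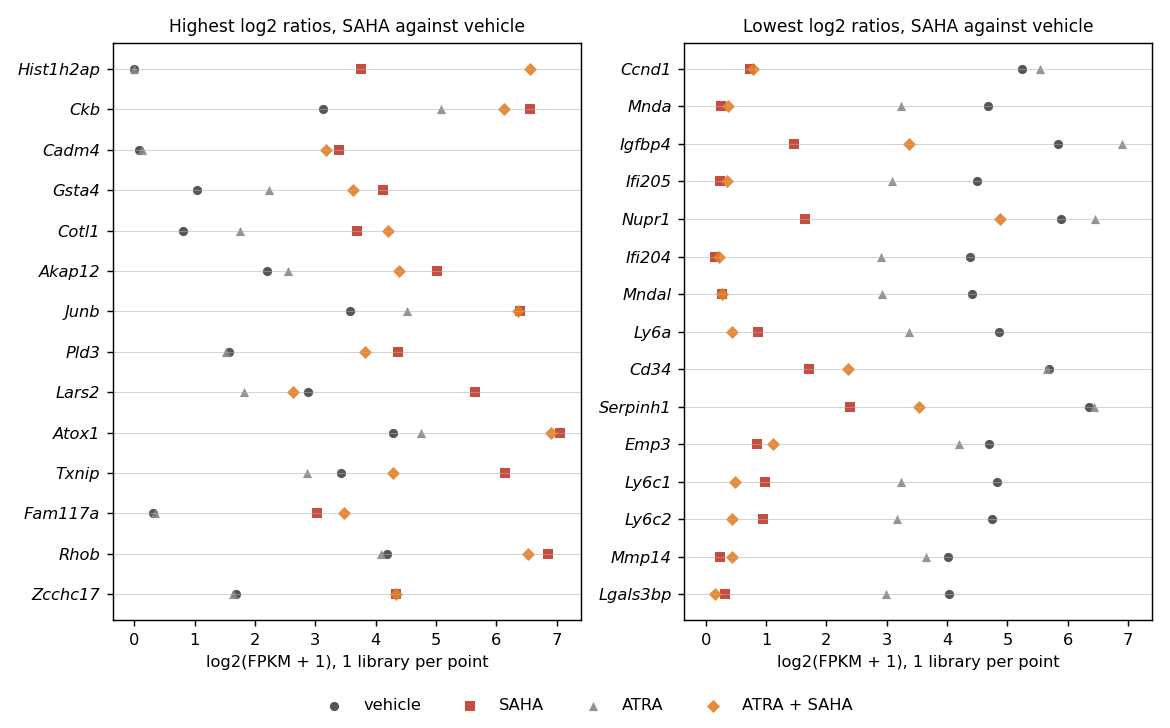
Named genes with the highest (left) and the lowest (right) log2 ratios of SAHA against vehicle, with log2(FPKM + 1) on the x axis and 1 point per library. Among the highest, Lars2 is at 49 FPKM with SAHA and 5.16 with both compounds, and among the lowest Nupr1 is at 2.14 and 28.5.

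Zinc-dependent histone deacetylase genes, of the classes that SAHA binds and of others, differed gene by gene at the RNA level. Of 11 zinc-dependent histone deacetylase genes 7 were counted, 2 were higher and 1 was lower (3 and 1 after rescaling). Among the class I enzymes, which work in the nucleus, Hdac3 was at 4.81 FPKM (vehicle), 5.21 (ATRA), 10.7 (SAHA) and 11 (both). Hdac1 was at 2.95, 2.92, 6.36 and 4.94 FPKM, a log2 ratio of 0.90, and Hdac2 was at 8.07 with vehicle and 5.94 with SAHA. Hdac8 was below the filter. Hdac6, the cytoplasmic tubulin deacetylase of class IIb, was at 1.21, 1.64, 4.53 and 4.11 FPKM. Of the class IIa enzymes, Hdac7 was at 3.31, 3.45, 0.394 and 0.349 FPKM, while Hdac4 and Hdac5 had log2 ratios of -0.15 and 0.20. Hdac9, Hdac10 and Hdac11 were below the filter.

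The subunits around these enzymes had a median of -0.46, which became -0.03 after rescaling. Among 24 counted corepressor subunits 1 was higher and 5 were lower (3 and 2 after rescaling). The higher gene was Sin3b, a scaffold that binds HDAC1 and HDAC2, at 8.25 FPKM (vehicle) and 23.6 (SAHA). The 4 lowest were Tbl1x (8.94 and 2.11 FPKM) and Tbl1xr1 (2.90 and 0.802), 2 subunits of the NCOR complex, Mta3 of the NuRD complex (4.70 and 0.855), and the scaffold Ncor1 itself (5.97 and 2.13). Of 9 histone acetyltransferase genes Kat2b was lower (2.38 and 0.306 FPKM) and 0 were higher. The 7 bromodomain genes of the list, whose products bind acetylated lysine, lay between -0.52 and 0.07. Outside the list and chosen after their values were seen, the bromodomain genes Brd1 (-1.34), Baz1a (-1.28), Baz1b (-1.22) and Bptf (-1.06) were lower, of which Baz1a remained past the mark after rescaling (-1.02). Among 20 polycomb and H3 methylation genes, Setd2, the H3K36 methyltransferase, was the 1 past the mark (3.48 and 1.06 FPKM), and after rescaling it was not, while the H3K4 demethylase gene Kdm5b was higher.

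Linker histone genes divided by type. H1fx, like H1f0 a gene outside the histone clusters, was at 1.40 FPKM (vehicle), 1.59 (ATRA), 7.54 (SAHA) and 8.53 (both). All 5 counted clustered genes (Hist1h1a to Hist1h1e), whose transcripts are made in S phase, were lower with SAHA, at log2 ratios of -2.13 to -1.48 (4 of the 5 after rescaling). Hist1h1b was at 225 FPKM (vehicle), 263 (ATRA), 56.2 (SAHA) and 255 (both). In the combination against ATRA, the 5 lay between -0.23 and 0.38 and none passed the mark. On chromosome 13, which holds the large histone cluster, 111 of 389 counted genes were lower (28.5%). Without the Hist1 genes 60 of 337 were (17.8%), since 51 of 52 Hist1 genes were lower. Some of these genes share sequence with others of the same histone type, and their reads may be split between them. The sum of the linker histone list was 642 FPKM (vehicle) and 291 (SAHA).

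Cell cycle genes are given from G1 to mitosis. Of 6 counted G1 cyclins and kinases, 3 were lower under either scale (and Ccnd3 was higher after rescaling): Ccnd1, Cdk6 (5.59 FPKM (vehicle) and 0.746 (SAHA)) and Cdk4 (34.9 and 11.3). Among their inhibitors, the p21 gene Cdkn1a was at 3.35 FPKM (vehicle), 3.15 (ATRA), 3.95 (SAHA) and 3.58 (both), and Cdkn1b, the p27 gene, at 6.29, 5.96, 2.99 and 3.49. The retinoblastoma gene Rb1 was the 1 member of that list past the mark, at 1.18 FPKM (vehicle) and 6.2 (SAHA), and Cdkn2d passed it after rescaling. Of 38 DNA replication genes, 1 was higher and 6 were lower, where 7.88% and 16% of all counted genes were. This lower count is thus about what all counted genes gave. The list's median of -0.36 became 0.09 after rescaling, with 3 higher and 3 lower. The lowest were the thymidine kinase gene Tk1 (-2.60), the helicase subunit genes Mcm6 (26.4 FPKM and 7.18) and Mcm5 (-1.21) and the ribonucleotide reductase gene Rrm2 (-1.49), and the higher gene was Gins4, a replication fork factor (1.18).

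Mitosis genes were low as a list in the SAHA library. Of 40 counted genes 32 were lower and 0 higher, all 40 ratios were below 0, and after rescaling 15 were lower. The list summed to 275 FPKM (vehicle), 290 (ATRA), 83.9 (SAHA) and 248 (both). Mki67, the proliferation antigen, was at 27.2, 23.4, 3.39 and 13.7 FPKM. Anln, an actin-binding protein of the cleavage furrow, had a log2 ratio of -2.01, Cdc20, the activator of the anaphase complex, -2.04 and the cyclin gene Ccnb2 -1.76. In the combination against ATRA 2 of the 40 were lower and the median was -0.32, against -1.24 for SAHA against vehicle. In bulk RNA such as this, fewer cells in mitosis and less of these RNAs per cell cannot be told apart. Promoters of the list held the CHR element TTTGAA, a cell cycle motif, in 24 of 34 cases and CCAAT in 26 of 34.

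Survival and death genes differed gene by gene. Bcl2l1, which encodes the protective protein BCL-XL, was at 21.4 FPKM (vehicle), 24.7 (ATRA), 2.53 (SAHA) and 3.06 (both). The killer gene Bok was at 4.04 FPKM (vehicle) and 0.463 (SAHA), and the other 10 counted BCL2 family genes lay between the marks (2 were higher after rescaling). Of 14 caspase and death receptor genes 3 were lower and 1 higher (2 and 2 after rescaling). The lower ones were the caspase inhibitors Cflar (-2.73) and Xiap (-1.09) and the initiator Casp8 at 7.01 and 0.684 FPKM. The higher one was Diablo, which blocks the IAP proteins, at 2.5 and 7.96 FPKM. Trp53, the p53 gene, was at 12.5, 11.8, 1.46 and 2.49 FPKM in the order vehicle, ATRA, SAHA and both. Of the 17 counted genes of the p53 list, 1 was higher (Plk2, 1.16) and 5 were lower (2 and 4 after rescaling), among them Gadd45a at 8.38 FPKM (vehicle) and 0.876 (SAHA), and Phlda3 at 7.57 and 2.19.

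Immediate early genes, which respond to growth signals within minutes, divided in 2 directions. Among these 24 genes 8 were above the mark and 4 below it (11 and 2 after rescaling). Junb, an AP-1 subunit, was at 11 FPKM (vehicle), 22 (ATRA), 82.8 (SAHA) and 80.7 (both). Egr1, a zinc finger factor, was at 4.92 FPKM (vehicle) and 34.1 (SAHA), and Fos at 0.149 FPKM (vehicle) and 3.10 (SAHA). The other AP-1 genes past the mark were lower, with Fosl1 at 16.0 and 2.04 FPKM and Jun at -1.0. Myc was at 44.7, 26.5, 6.97 and 13.1 FPKM. Feedback inhibitors of ERK signalling were lower in 5 of 12 cases and higher in 1 (3 and 2 after rescaling), and their median of -0.51 moved to 0.01. Spry2 was at 5.96 FPKM (vehicle) and 0.553 (SAHA), the ERK phosphatase gene Dusp7 at 11.6 and 1.83, and Dusp4 at 20.9 and 5.55, while Dusp2 was at 0.956 and 4.15.

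**Figure D3:**
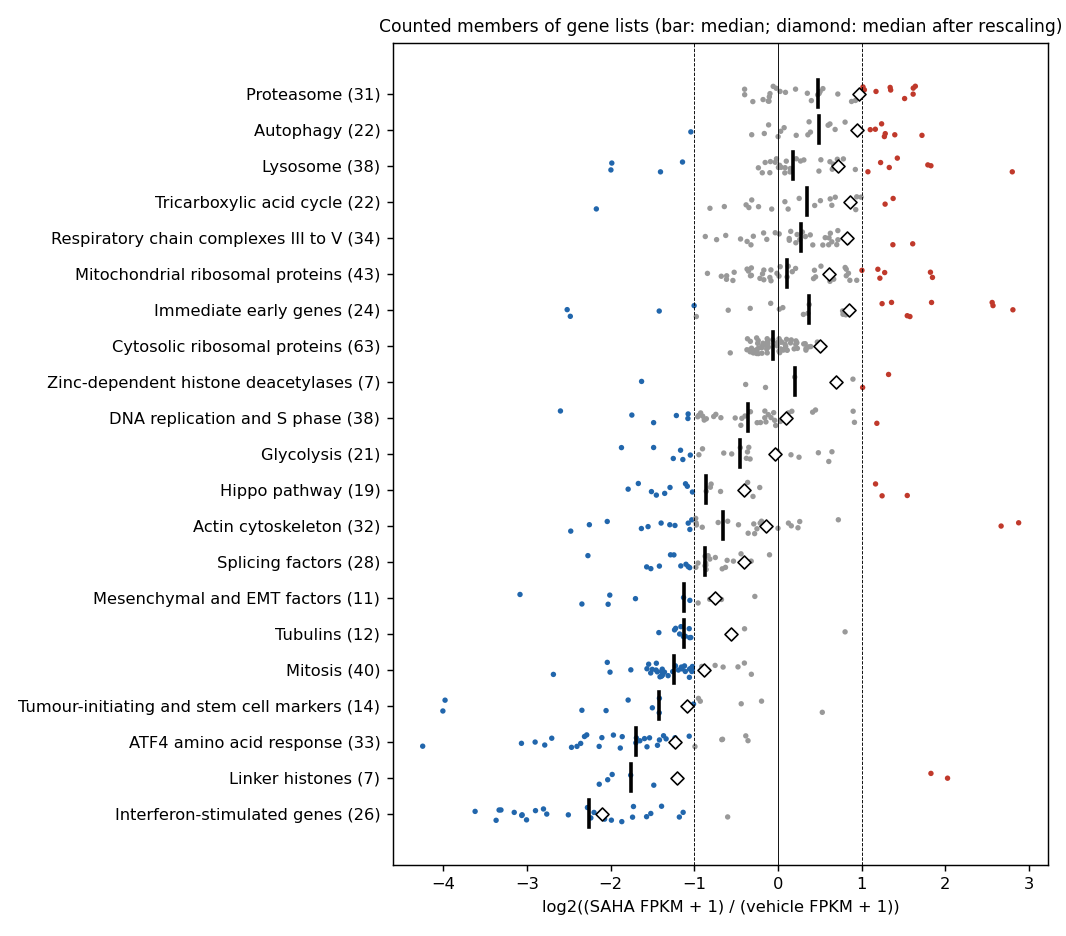
Log2 ratios of SAHA against vehicle for the counted members of 21 gene lists, 1 point per gene, with the number of members after each name. Bars mark the median as deposited, diamonds the median after rescaling and dashed lines the marks at -1 and 1. The interferon-stimulated list has the lowest median (-2.26, and -2.10 after rescaling), the proteasome list a median of 0.47 (0.97 after rescaling), and the medians of the DNA replication and cytosolic ribosomal protein lists change sign with the rescaling.

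Proteasome genes were higher in many members and lower in none. Of 31 proteasome genes 9 were higher and 0 lower (15 and 0 after rescaling), where 7.88% of all counted genes were higher as deposited and 19.6% after rescaling. The list's median was 0.47 against -0.12 for all counted genes, and its sum was 445 FPKM (vehicle), 505 (ATRA), 673 (SAHA) and 856 (both). Subunits of the 19S regulatory cap led it. Psmd2 was at 10.9 FPKM (vehicle), 12.4 (ATRA), 36.0 (SAHA) and 34.8 (both), Psmd4, a ubiquitin receptor, at 14.0, 17.1, 45 and 59, and Psmd3 at 5.32, 6.76, 18.4 and 21.1. For each of these the 2 libraries with SAHA lay above the 2 without. They were named for their ratios of SAHA against vehicle, and the share of all counted genes with this order was not taken. In the combination against ATRA, where 10.5% of all counted genes were higher, 8 of the 31 were higher and 0 lower.

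Autophagy and lysosome genes showed a like count. Among 22 autophagy genes 7 were higher and 1 was lower (10 and 0 after rescaling), with a median of 0.49. Atg12, a ubiquitin-like conjugation protein, was at 3.68 FPKM (vehicle), 3.58 (ATRA), 14.4 (SAHA) and 35.4 (both). The LC3 family genes differed: Map1lc3b was at 21.9 FPKM (vehicle) and 54.8 (SAHA) and Gabarapl2 at 5.37 and 15.8, while Gabarapl1 was at 10.9 and 4.77. Of 13 genes of the proton pump that acidifies lysosomes 4 were higher and 0 lower (10 and 0 after rescaling), led by Atp6v1e1 (8.51 and 32.8 FPKM) and Atp6v0d1 (3.80 and 15.6). Hydrolases and membrane proteins of the lysosome went both ways, with 3 of 25 higher and 4 lower (5 and 3 after rescaling). Pld3, a nuclease, was at 1.97 and 19.7 FPKM and the protease gene Ctsd at 52.7 and 143, while the membrane protein gene Cd63 was at 17.9 and 3.75 and the hexosaminidase gene Hexa at 6.84 and 0.980.

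Nuclear genes of mitochondrial proteins had more higher than lower members. Of 36 complex I genes 5 were higher and 1 lower (12 and 0 after rescaling), led by Ndufv1 at 8.18 FPKM (vehicle) and 28.5 (SAHA) and Ndufb9 at 25.1 and 80.8. Complexes III to V had 2 of 34 higher and 0 lower (13 and 0 after rescaling), Uqcr11 (1.61) and Uqcrh (1.37). Among 43 mitochondrial ribosomal protein genes 6 were higher and 0 lower (15 and 0 after rescaling), with Mrps12 at 7.88 and 30.9 FPKM. Of all counted genes 7.88% were higher as deposited and 19.6% after rescaling, and the count for complexes III to V as deposited is below that share. In the tricarboxylic acid cycle (2 of 22 higher and 1 lower, and 10 and 1 after rescaling), both malate dehydrogenase genes were higher, Mdh1 (7.39 and 20.8 FPKM) and Mdh2 (14.5 and 36.7), and the succinate-CoA ligase gene Suclg2 was lower (9.45 and 1.32). Of 63 counted cytosolic ribosomal protein genes 0 passed the mark in either direction, with ratios of -0.57 to 0.47 and a median of -0.06. After rescaling that median was 0.50 and 1 gene was higher.

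The amino acid response under the factor ATF4 was low with SAHA. Among its genes 28 of 33 counted ones were lower and 0 higher (23 and 0 after rescaling), and all 33 ratios were below 0. Its enzymes of serine, asparagine and one-carbon synthesis were lower in 13 of 14 cases (10 after rescaling), with Pck2, a mitochondrial carboxykinase, at 16.0 FPKM (vehicle) and 1.04 (SAHA). Its factors were lower in 9 of 11 cases (8 after rescaling), and Atf4 itself was at 103 FPKM (vehicle) and 20.3 (SAHA). In the combination against ATRA 16 of the 33 were lower and 1 was higher, and the median was -0.92. The sum over the enzymes was 317 FPKM (vehicle), 318 (ATRA), 75.6 (SAHA) and 128 (both), and that over the factors 254, 240, 52.2 and 545. The combination was thus below ATRA in the sum of its enzymes and above it in the sum of its factors. Gene by gene, 1 of the 11 factors was higher there and 4 were lower, with a median of -0.64, so the sum does not describe most factors. Trib3, a pseudokinase under ATF4, was at 11.7, 7.84, 0.946 and 8.03 FPKM in that order. Of 29 promoters of the list 9 held TGATGNAA, the C/EBP-ATF composite element, on either strand. Among 20 cytosolic aminoacyl-tRNA synthetases 7 were lower and 1 higher (3 and 3 after rescaling), with Gars, the glycyl enzyme, at 49.9 and 13.4 FPKM, Lars at 19.2 and 5.75, and the glutaminyl enzyme Qars at 3.94 and 9.80.

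Glycolysis genes were lower in 6 of 21 cases and higher in 0, but after rescaling 2 were lower and 3 higher. The lowest were Tpi1, triosephosphate isomerase (75 FPKM (vehicle) and 19.8 (SAHA)), and the lactate transporter genes Slc16a1 (12.1 and 3.69) and Slc16a3 (10.5 and 3.85). Cholesterol synthesis had 2 higher and 3 lower of 24 genes (3 and 1 after rescaling, where the median went from -0.34 to 0.19). Mvk, mevalonate kinase, was at 3.48 FPKM (vehicle) and 8.23 (SAHA). In fatty acid synthesis 2 genes were higher and 2 lower of 15 (4 and 2 after rescaling, where the median went from -0.29 to 0.19). The elongase gene Elovl5 was higher (13.4 and 32.1 FPKM) and the elongase Elovl6 (4.20 and 0.532) and the desaturase Fads2 (5.21 and 0.938) were lower.

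Unfolded protein response genes and NRF2 and glutathione genes went both ways, while copper and zinc genes past the mark were all higher. Of 25 unfolded protein response genes 4 were higher and 3 lower (9 and 3 after rescaling, where the median went from -0.09 to 0.41). The higher ones were chaperones and their partners: Calr, a calcium-binding chaperone (27.3 FPKM (vehicle) and 101 (SAHA)), Hyou1 (4.98 and 17.6), Creld2 (1.84 and 7.47) and Dnajb11 (2.92 and 7.84). The lower ones were Ppp1r15a, the eIF2α phosphatase subunit GADD34 (27.0 and 2.32), Herpud1 (10.9 and 1.04) and the transcription factor Xbp1 (9.40 and 1.79). In the combination against ATRA, Ppp1r15a had a log2 ratio of 0.98. Of 26 NRF2 and glutathione genes 4 were higher and 7 lower (5 and 5 after rescaling, where the median went from -0.12 to 0.32). The sulfiredoxin gene Srxn1 was at 2.33 and 14.5 FPKM and the peroxidase genes Gpx1 and Gpx8 at 58.9 and 11.9 and at 11.4 and 2.81. Among 14 genes of copper and zinc handling 4 were higher and 0 lower (5 and 0 after rescaling). Atox1, a copper chaperone, was at 18.6 FPKM (vehicle), 25.9 (ATRA), 131 (SAHA) and 119 (both). The metallothionein gene Mt1 was at 86.3 FPKM (vehicle) and 353 (SAHA), yet -0.85 on the log2 scale in the combination against ATRA.

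Interferon-stimulated effector genes were nearly all lower, while most signalling genes lay between the marks. Of 26 counted interferon-stimulated genes 25 were lower, 23 after rescaling, and the list summed to 487 FPKM (vehicle), 324 (ATRA), 78.8 (SAHA) and 93.0 (both). Ifit1, an RNA-binding antiviral protein, was at 9.85, 2.35, 0.0517 and 0.0530 FPKM, and Rtp4 had the lowest ratio of the list (-3.62). Of 21 signalling genes 8 were lower, 13 lay between the marks and 0 were higher (7 lower and 3 higher after rescaling). The lower ones were led by the factors Irf7 (-3.07) and Irf9 (-2.74) and the RNA sensor Ddx58 (-2.58). In the combination against ATRA 15 of the 26 were lower with a median of -1.25, where ATRA alone was already below vehicle in sum. Promoters of the list held the response element core in 12 of 23 cases. All 5 counted targets of NF-kB were lower (4 after rescaling), while 8 of its 9 factors and inhibitors lay between the marks (7 after rescaling). The lowest target was Vcam1, an adhesion receptor (-3.20). Of 12 antigen presentation genes 2 were higher and 4 lower (4 and 1 after rescaling), and the median of -0.37 became 0.19 after rescaling. The higher ones as deposited were H2-D1 (87.0 and 175 FPKM) and Calr. Among the lower ones as deposited were the peptide trimming enzyme Erap1 (2.07 and 0.201) and the transporter subunit Tap1 (2.46 and 0.535).

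Mesenchymal factors and several matrix genes were lower with SAHA. The stellate cell list, given above, summed to 27.4 FPKM (vehicle) and 19.6 (SAHA), and its part in these values was not tested. Of 11 counted mesenchymal transcription factors and markers 7 were lower and 0 higher (5 and 0 after rescaling). Prrx1, a homeobox factor, was at 8.97 FPKM (vehicle) and 0.177 (SAHA), Twist1 at 7.62 and 0.701 and Foxc1 at 4.83 and 0.429. Vim, the mesenchymal filament gene, was at 562, 432, 319 and 362 FPKM in the order vehicle, ATRA, SAHA and both. The collagen list had 6 lower and 1 higher of 15 (5 and 1 after rescaling). Pcolce, which enhances procollagen cleavage, was at 42.7 and 3.46 FPKM, Col8a1 at 14.3 and 1.30, and the prolyl hydroxylase subunit P4hb at 37.2 and 91.9. Of 22 matrix and integrin genes 8 were lower and 1 higher, the latter being Spp1 (7 and 3 after rescaling). The integrin gene Itgb7 was at 21.3 and 2.16 FPKM and the protease inhibitor gene Timp2 at 28.7 and 4.18.

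Cytoskeleton genes past the mark were mostly lower, and their number depended on the scale. Of 32 actin cytoskeleton genes 11 were lower and 2 higher (5 and 3 after rescaling). Tpm1, a tropomyosin, was at 120 FPKM (vehicle), 218 (ATRA), 20.7 (SAHA) and 27.8 (both), and Pfn1, profilin, at 115, 114, 27.3 and 30.4. Actb was at 523, 543, 198 and 275 FPKM. The higher genes were Cotl1, an actin-binding protein (0.752 with vehicle and 11.9 with SAHA), and Rhob. Of 12 tubulin genes, which share sequence and reads, 10 were lower and 0 higher as deposited (0 and 1 after rescaling). The 10 ratios lay between -1.42 (Tubb5) and -1.04 (Tubb4b).

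Signalling pathways differed in their counts, where 16% of all counted genes were lower. In the Hippo pathway 9 of 19 genes were lower and 3 higher (3 and 3 after rescaling). The coactivator gene Yap1 was at 4.20 FPKM (vehicle) and 0.505 (SAHA) and its target Ankrd1 at 2.59 and 0.129, while 2 other targets were higher, Ctgf (4.70 and 15.6) and Cyr61 (7.40 and 18.9). In TGF-beta and BMP signalling 6 of 19 were lower and 1 higher (2 and 2 after rescaling). Id3, an inhibitor of helix-loop-helix factors, was at 14.1 and 2.43 FPKM and the receptor Tgfbr2 at 4.37 and 1.10. Of 12 Notch and Wnt genes 1 was higher, the receptor Notch1 (1.01), and 1 lower (2 and 1 after rescaling). The lower one, the Notch DNA-binding factor Rbpj, was at 26.8, 21.6, 4.31 and 6.52 FPKM in the order vehicle, ATRA, SAHA and both. Of 13 receptor tyrosine kinases Ddr2, a collagen receptor (11.2 and 0.414), and Axl (46.6 and 15.7) were lower and 0 were higher, and Axl was at -0.98 after rescaling. The medium held dexamethasone, and of 14 glucocorticoid receptor genes and targets 6 were lower and 1 higher (2 and 2 after rescaling). Tsc22d3, which encodes the glucocorticoid-induced leucine zipper, was at 18.6, 6.71, 2.53 and 6.19 FPKM in that order.

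Stem cell markers and RNA processing completed the lists. Of 14 counted tumour-initiating and stem cell markers 9 were lower and 0 higher (7 and 0 after rescaling), led by Ly6a (-4.0) and Cd34. Cd44 was at 61.8 FPKM (vehicle), 42.2 (ATRA), 31.5 (SAHA) and 21 (both), a log2 ratio of -0.95. Among 28 splicing factor genes 10 were lower and 0 higher (5 and 0 after rescaling), and all 28 ratios were below 0. Hnrnpa2b1 was at 14.7 and 2.25 FPKM, and Hnrnpu at 25.8 and 8.05. Of 32 ribosome biogenesis genes 1 was higher (Nop10, and after rescaling also Bop1 and Bysl) and 6 were lower under either scale, among them the box C/D core protein gene Nop56 (29.5 and 3.48) and Dkc1, the pseudouridine synthase dyskerin (5.74 and 0.547). Of 8 counted nuclear and imprinted noncoding RNAs 2 were higher and 3 lower under either scale, and the higher ones were Malat1 (36.0 and 141 FPKM) and Neat1 (1.87 and 5.35). Of 24 genes listed as known to rise with histone deacetylase inhibitors 8 were higher and 4 lower (11 and 2 after rescaling). Of 16 listed as known to fall 12 were lower and 0 higher (5 and 0 after rescaling). The marker Ckb is counted in the first of these lists and the marker Ccnd1 in the second. Both lists were drawn up with earlier results of these data known, so their counts are no separate check.

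The same compound was also given on top of ATRA, and the combination against ATRA shares no library with SAHA against vehicle. In that comparison 901 genes were higher (10.5%) and 1029 lower (11.9%). Of the 679 genes higher with SAHA alone 475 were higher there too, 70% of that list and 52.7% of the combination's list. Of the 1381 lower genes 803 were lower in both, 58.1% and 78% of the 2 lists. Genes past the mark in opposite directions numbered 3 and 16. Of the genes higher with SAHA alone 96% had a ratio above 0 in the combination against ATRA, against 51.8% of all counted genes, and of the lower genes 93.6% had a ratio below 0, against 47.8%. After rescaling 657 were higher in both, 39% of a SAHA list that had grown to 1686, and 577 were lower in both, 71.4% of the SAHA list. Ccnd1 (-4.50 and -4.75), Bcl2l1 (-2.66 and -2.66) and Zcchc17 (2.65 and 2.70) had close ratios in the 2 comparisons. Ckb (3.43 and 1.04) and Igfbp4 (-4.37 and -3.52) were nearer 0 with ATRA, and S100a4, a calcium-binding protein gene, was further from it (-2.01 and -4.58).

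**Figure D4:**
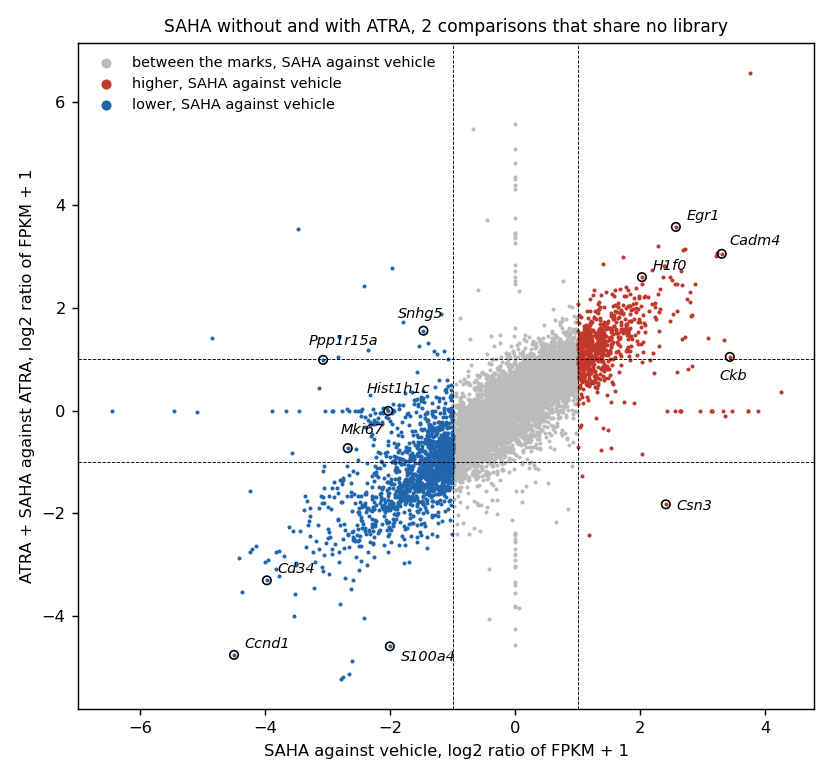
Log2 ratios of the 8616 counted genes for SAHA against vehicle (x axis) and for ATRA with SAHA against ATRA (y axis), coloured by the first comparison, with dashed lines at -1 and 1. Most red points lie above 0 on the y axis and most blue points below it (96% and 93.6%), while Hist1h1c and Ppp1r15a lie low on the x axis and near or above 0 on the y axis.

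Transcripts of the genes higher as deposited were shorter and richer in GC than those of all counted genes. Lengths, GC content and shares were not taken for the sets after rescaling. With the longest coding transcript of each gene (or the longest where none is coding), higher genes had a median of 2204 bases, against 2794 for lower genes and 2900.5 for all counted genes. Their genes spanned a median of 12.9 kb, against 17 kb and 19.6 kb. The GC content of their transcripts had a median of 52.8%, against 49.9% and 50%. When genes were divided into 5 equal groups by transcript GC, 3.35% were higher in the group with the least GC and 11.6% in that with the most, while the lower share stayed between 15% and 16.2%. By transcript length, the higher share went from 11.2% among the shortest to 4.84% among the longest. The combination against ATRA had the same order, from 4% to 15.4% by GC and from 14% to 5.98% by length. Among transcripts longer than the median the higher share still went from 2.88% to 8.35% by GC, and among shorter ones from 4.28% to 13.4%. By FPKM in the ATRA library, the lower share went from 3.54% in the lowest group to 29.3% in the highest. The higher share went from 12.6% to 5.25%. Neither side of the comparison uses the ATRA library, but the filter on the mean takes in all 4 libraries. Genes under 1 FPKM with ATRA were counted only where the other libraries, SAHA among them, lifted the mean to 1. The part of this filter in the shares by level was not tested. The scale of log2(FPKM + 1) holds low genes near 0, and the 16% of all counted genes is thus not the share among abundant genes alone. The part of GC content, length and level in the counts was not tested.

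**Figure D5:**
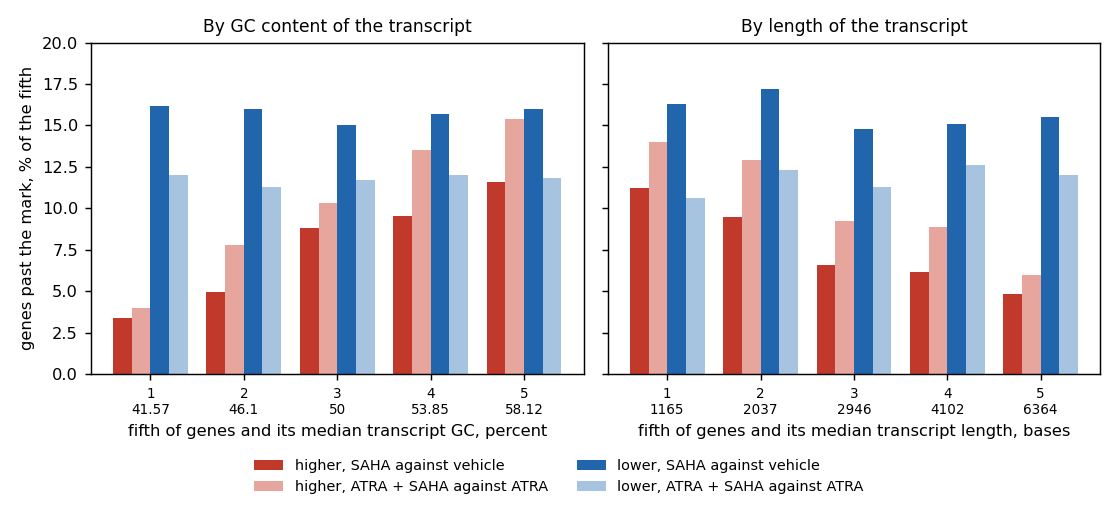
Share of genes past the mark, as deposited, in each of 5 equal groups of genes ordered by transcript GC content (left) or length (right). The group's median stands under its number. The share of higher genes goes from 3.35% to 11.6% with GC and from 11.2% to 4.84% with length, and the share of lower genes shows no such order.

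Promoters of the genes higher and lower as deposited held some motifs in different shares. The shares were not taken for the sets after rescaling. Among genes with a standard symbol 489 of 607 higher and 1011 of 1250 lower genes had a RefSeq promoter window. CCAAT, the NF-Y motif, stood on either strand in 48.5% of promoters of higher genes, 35.4% of those of lower genes and 40.3% of all counted ones. The GC box GGGCGG stood in 75.9%, 66% and 69.9%. Lower genes had larger shares of other motifs: the CHR element TTTGAA in 16.5%, against 7.98% of higher and 11.8% of all counted genes, the response element core in 5.93%, against 3.27% and 2.97%, the AP-1 site TGANTCA in 7.02%, against 4.29% and 4.28%, and the C/EBP-ATF element in 3.76%, against 1.43% and 1.91%. The TATA box, searched on the gene's strand, stood in 8.21% of lower, 5.11% of higher and 4.52% of all counted genes. Other motifs searched had their smallest share in lower genes. TGACGTCA (CRE) stood in 2.18% of lower, 4.29% of higher and 3.75% of all counted genes. In that order, GCGTGGGCG (EGR site) stood in 0.89%, 2.25% and 1.17%, and CACGTG (E-box) in 9.69%, 10.6% and 10.8%. Over 27018 promoters of the reference, the shares were 37.9% for CCAAT, 35.9% for the GC box, 18.1% for the CHR element, 3.49% for the response element core, 7.94% for AP-1, 4.05% for the C/EBP-ATF element and 8.88% for the TATA box. These are counts of letters in windows and no binding was measured.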

How the data were processed

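RNA from 4 cultures was depleted of ribosomal RNA before sequencing, per the labels' protocols. Trimmomatic 0.32, Cuffdiff and the build mm10 are named, with no order of use, per the submitters' processing notes. For the aligner, the annotation, the version of Cuffdiff, strand and library scaling, the sources used here give nothing. The deposited values are FPKM, 1 column per library, per the file headers, and no read counts were used. Columns were matched to groups by their names.

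Values were compared as log2(FPKM + 1) over the 8616 genes whose mean reached 1 FPKM, and a difference of 1 or more was counted. With 1 library a group there was no test, so differences carry no error. Depth was taken from the commonest small step of FPKM multiplied by length among low genes. Genes were named by rule: the 15 highest and 15 lowest ratios among genes that reached 5 FPKM in either library (no small RNAs, pseudogenes, predicted genes or joined symbols), the 4 markers, up to 4 leading members of each list in the direction described with members past the mark in the other direction and the most abundant member, and a fixed set. Of these genes 2 are not reported here. Members and lists (69 lists, 1446 symbols, 1422 in the table, 1121 counted) were chosen with earlier results of these data known. Genes named for their 2 ratios with and without ATRA were chosen after their values were seen. In 27 rows the symbol had turned into a date, and it was read from the row's description where that gave one. The counted row 15-Sep kept its date. Transcript length and GC are from GENCODE M21 (mm10), matched by symbol for 98.7% of counted genes, and promoters from RefSeq. Motif shares cover symbols with over 80% of promoters found. Alternatives were a pseudocount of 0.1, no filter, a mean of at least 5 FPKM, centring, rescaling each library to the same total of counted protein-coding genes (no small RNAs or predicted Gm genes), leaving out small RNAs or overlapping rows, and a mark of 1.5. Python 3.11.15 with pandas, numpy and matplotlib was used.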

Additional observations from a re-analysis of the deposited data

Results flagged for a closer look

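A few named genes passed the mark in opposite directions with SAHA alone and with SAHA added to ATRA. With 1 library a group these differences were not tested. Csn3, a casein gene, had a log2 ratio of 2.41 for SAHA against vehicle and -1.82 for the combination against ATRA. Tinagl1, a matrix protein gene, stood at 1.06 and -1.27. The selenoprotein gene Sepw1 stood at -1.08 and 1.01, and Nfil3, a transcription factor tied to the clock, at -1.29 and 1.15. The small nucleolar RNA host genes Snhg12 and Snhg5 stood at -1.39 and 1.31 and at -1.47 and 1.55. After rescaling the ratios of SAHA against vehicle were -0.56 for Sepw1 and -0.83 for Nfil3, no longer past the mark, and -1.06 for Snhg12 and -1.07 for Snhg5. As deposited 19 counted genes were opposite, most of them small RNAs.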

How the results depend on the processing

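The counts of genes past the mark moved with several choices, and the cause was not tested beyond what each choice does. For SAHA against vehicle the higher count of 679 became 1099 with a pseudocount of 0.1, 337 with a mean of at least 5 FPKM, 1686 with rescaling and 230 at a mark of 1.5. The lower count of 1381 became 596 with a mean of at least 5 FPKM, 808 with rescaling and 650 at a mark of 1.5. For the combination against ATRA the higher count of 901 became 1410, 435 and 270 with the pseudocount, the mean of at least 5 FPKM and the mark of 1.5. The lower count of 1029 became 419 with the mean of at least 5 FPKM and 483 at the mark of 1.5. Every other alternative kept these counts within 1.5 times. Of 400 named gene values, 121 moved by more than 1.5 times with the pseudocount of 0.1, while centring and rescaling by their construction shift ratios by less than that. No paired analysis was possible because each group had 1 library. The single libraries set the limit on every value here, since the spread between cultures is unknown.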
